A study of Rattus norvegicus with 8 samples.

Results

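The GABA-A receptor is the chloride channel through which GABA, the main inhibitory transmitter of the adult brain, acts within milliseconds. It is a ring of subunits drawn from several gene families, usually a pair of alpha subunits, a pair of beta subunits and either a gamma or a delta subunit. The alpha, gamma and delta subunits largely set where the receptor sits: receptors with alpha2 or alpha3 and a gamma subunit gather at synapses and carry brief, phasic inhibition, whereas receptors with alpha4 and delta, or with alpha5, lie mostly outside synapses and carry a tonic current that responds to ambient GABA and, for delta receptors, to neurosteroids. In the hippocampus, alpha5 is abundant in CA1 and CA3 pyramidal cells, and alpha4 and delta in dentate granule cells.

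The 7 genes described are Gabra2 and Gabra3 (synaptic alpha subunits), Gabra4, Gabra5 and Gabrd (extrasynaptic subunits), and Gabrb1 and Gabrb2 (beta subunits, which take part in both kinds of receptor). The rule takes them by gene symbol, although the list of symbols was drawn up with earlier results of these data known. The table held 9 transcript rows for them among 16266 rows and 13272 gene symbols. Gabra2 and Gabra5 had 2 rows each, and the other genes had 1. All 9 rows were above 5 FPKM in both groups.

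The rows come from RNAseq of whole hippocampi of 8 adrenalectomized rats, labelled Sprague-Dawley and 3 to 4 months old. The study's methods instead name male Lister hooded rats of a younger age. A 30 min infusion of 0.45% saline was given at ZT 2 to 4 vehicle rats (titled "untreated" in the labels), and corticosterone-2-hydroxypropyl-beta-cyclodextrin at 0.75 mg/mL to 4 CORT rats, and tissue was taken 2 h after the infusion began. Rats of both groups lacked adrenal glands and had drunk corticosterone in saline during recovery from surgery, which was withdrawn before the experiment, so the vehicle group stands for a brain with its own corticosterone removed. The comparison asks which hippocampal mRNAs differ shortly after a single corticosterone pulse. The vehicle group did not receive the cyclodextrin carrier according to the labels, so the steroid and its carrier cannot be told apart. The tissue was not separated into cell types, and fewer cells of a type and less RNA per cell cannot be told apart in it.

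The values are FPKM, fragments corrected for transcript length and sequencing depth, a level per length, so levels of different subunits can be compared. The authors' table gives 1 value for each group of 4 rats. Values of single rats, read totals and the authors' own fold changes and p-values were not used here. No difference could therefore be set against the spread between rats, no test was run, and every ratio below is a description of 2 group values. A level at least 25% higher under CORT, or at least 20% lower (the same size of ratio in the other direction), was used as a mark of size only, and "past the mark" means no more than that.

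Known glucocorticoid targets were looked at first. Their list was drawn up with earlier results of these data known, so it is not an independent check of the treatment. All 12 of 12 listed targets were higher past the mark, against 5.88% of all symbols, with a median log2 ratio of 0.93. Pyramidal cell markers were abundant, as the tissue label requires, among them Slc17a7 at 736 FPKM and Camk2a at 593 FPKM with vehicle. Across all transcripts the median log2 ratio was 0.02.

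The levels of the subunits ranked in the same order in both groups. Gabra5 was the highest of the 7 genes, at 82.9 FPKM under vehicle and 86.1 FPKM under CORT when its rows were summed. Gabra2 followed at 53.5 and 59.1 FPKM, and Gabra4 at 34.2 and 34.4 FPKM. Gabrd, the delta subunit, stood in the middle of the order. The remaining genes, Gabra3, Gabrb2 and Gabrb1, lay between 6.02 and 12.4 FPKM, so the least abundant of the 7 genes were 1 synaptic alpha gene and both beta genes. Whether neighbours in this order, such as Gabrb2 and Gabrb1, differ beyond the spread between rats could not be asked.

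**Figure D1:**
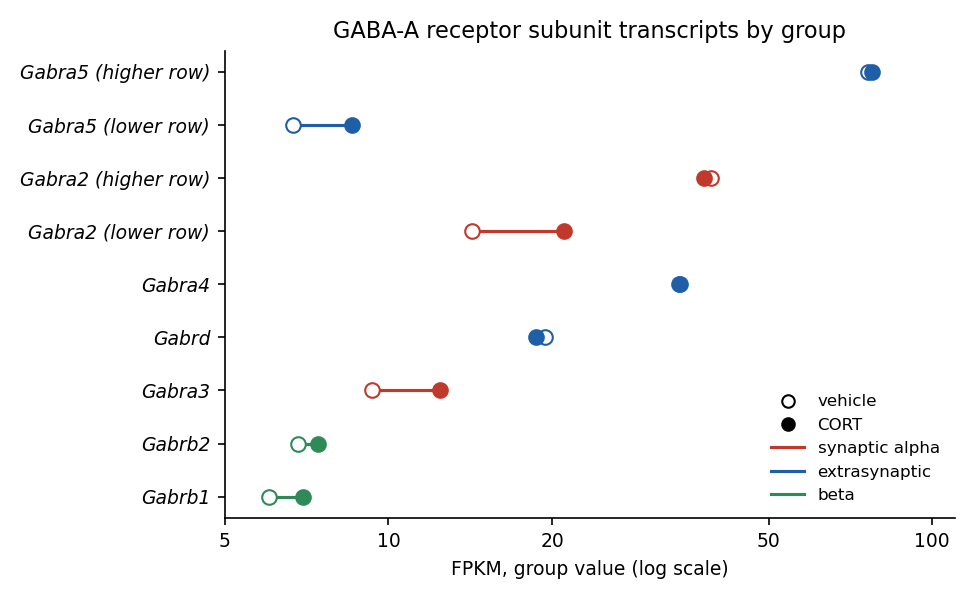
FPKM of each of the 9 transcript rows (log axis) in the vehicle group (open circles) and the CORT group (filled circles), 1 group value of 4 rats each, without error bars because values per rat were not used. Circles nearly coincide for Gabra4 (34.2 and 34.4 FPKM), Gabrd (19.4 and 18.7 FPKM) and the higher rows of Gabra2 and Gabra5. Gabra3 and the lower rows of Gabra2 and Gabra5 are shifted to higher values with CORT.

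Of the 9 member transcripts, 3 were higher past the mark under CORT and 0 were lower past it. Among all transcripts, 9.54% were higher and 10.8% lower past the mark, but low-level transcripts scatter more. Among the 10371 transcripts at 5 FPKM or more in both groups, a level chosen after the data were seen, the shares were 4.18% and 3.71%. The 3 transcripts were the lower row of Gabra2, the single row of Gabra3 and the lower row of Gabra5. With the rows of a gene summed, Gabra3 alone of the 7 genes was past the mark. The median log2 ratio was 0.13 over the 9 transcripts, against 0.03 over transcripts at 5 FPKM or more, and 7 of the 9 ratios were above 0, against 59.3% of those transcripts. With only the highest row of each gene, the median was 0.026, against 0.018 over all symbols. In that form 5 of 7 ratios were above 0, against 54.2% of all symbols. With rows summed the median over the genes was 0.13.

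**Figure D2:**
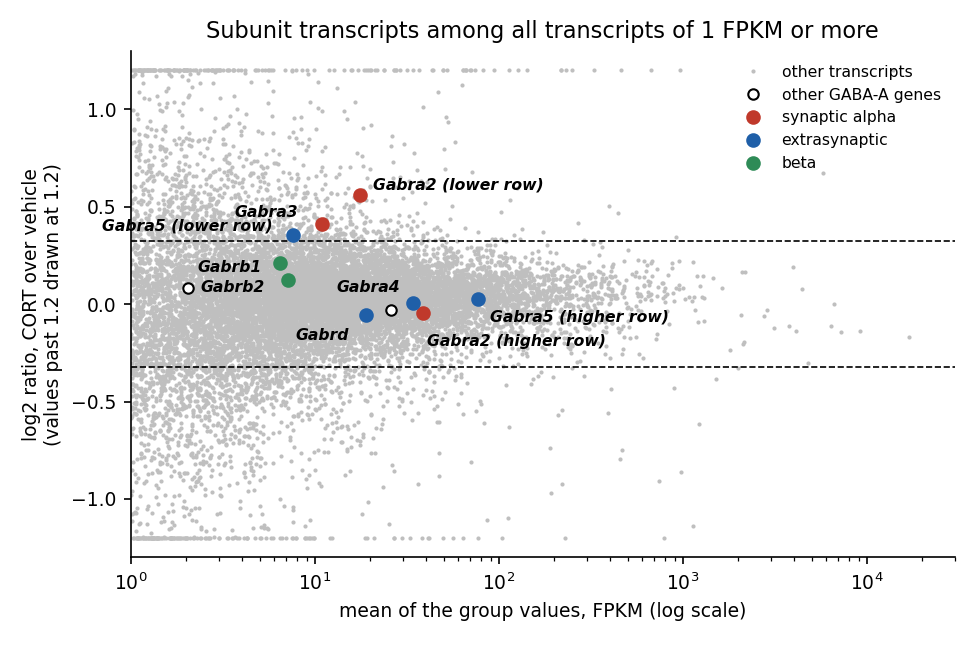
Log2 ratio of CORT over vehicle against the mean of both group values in FPKM (log axis) for transcripts with a mean of at least 1 FPKM (grey), the member transcripts (coloured by class) and the GABA-A genes Gabrg1 and Gabrr2 (open circles); dashed lines are drawn at 25% higher and 20% lower. The 3 member transcripts above the upper line are at 0.56 (Gabra2, lower row), 0.41 (Gabra3) and 0.36 (Gabra5, lower row), and the other 6 lie between the lines.

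Gabra3, the alpha3 subunit, was at 9.33 FPKM under vehicle and 12.4 FPKM under CORT. That is a 1.33-fold higher level, a log2 ratio of 0.41, and 2.38% of transcripts at 5 FPKM or more in both groups had a ratio at least as high. Gabra3 has 1 row in the table (ENSRNOT00000080277.1, X:152414614-152642531 on rn6), so its value is not split between rows of the table; transcripts that the authors filtered out were not analysed here. It is, however, one of the less abundant of these subunits, with 4.40% of the summed FPKM of the 7 genes with vehicle and 5.52% with CORT.

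Gabra2, the alpha2 subunit, which is prominent at synapses on the axon initial segment of pyramidal cells, gave different ratios in its 2 rows. The higher row (ENSRNOT00000064779.4) was at 39.2 FPKM under vehicle and 38.0 FPKM under CORT, a log2 ratio of -0.04. The lower row (ENSRNOT00000003197.7) was at 14.3 and 21.0 FPKM, a 1.47-fold higher level with CORT. The lower row thus held 26.7% of the gene's FPKM with vehicle and 35.6% with CORT, and the gene as a whole had a log2 ratio of 0.14. Both rows carry the same locus (14:39661967-39798302 on rn6), where short reads in shared exons have to be divided between transcripts by estimation. The log2 ratios of the 2 rows differed by 0.60. Of 744 symbols with 2 rows at 5 FPKM or more, 6.05% had rows that differed by at least as much, and the median difference was 0.16.

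Gabra5, the alpha5 subunit of tonic inhibition in pyramidal cells, showed a smaller split of the same kind. Its higher row (ENSRNOT00000083894.1) was at 76.2 FPKM under vehicle and 77.6 FPKM under CORT. Its lower row (ENSRNOT00000014573.6) was at 6.69 and 8.56 FPKM, a 1.28-fold higher level with CORT. The lower row carried 8.07% of the gene's FPKM with vehicle and 9.94% with CORT, a small part of the gene's total. The log2 ratio was 0.03 for the higher row and 0.06 for the total. A difference between rows as large as the 0.33 of Gabra5 was found in 24.6% of 2-row symbols. The locus is 1:112833974-112947173 on rn6.

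Gabra4, the alpha4 partner of delta, had nearly equal values, 34.2 FPKM under vehicle and 34.4 FPKM under CORT (ENSRNOT00000003191.6, 14:39154528-39231695). Gabrd was at 19.4 FPKM under vehicle and 18.7 FPKM under CORT (ENSRNOT00000022246.4, 5:172797449-172809353), a log2 ratio of -0.06. Among the genes as a whole, Gabrd was the only one of the 7 with a lower value in the CORT group, 0.96 times that of the vehicle group. The level of Gabra4 was 1.76 times that of Gabrd with vehicle and 1.84 times with CORT. Both genes are also expressed in thalamic relay neurons. Of 13 thalamic and habenular markers with a row, 8 were lower past the mark, against 9.52% of all symbols. Only 1 was higher (Rora, at 0.56 and 0.91 FPKM), against 5.88% of all symbols, and 4 were within the marks. The list pools both regions, and its summed level was 89.4 FPKM under vehicle and 61.2 FPKM under CORT. The part of thalamic or habenular cells in the values of Gabra4 and Gabrd was not tested.

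The beta subunits, which form the GABA binding site together with an alpha subunit, were both slightly above their vehicle values. Gabrb1 was at 6.02 FPKM under vehicle and 6.96 FPKM under CORT, a log2 ratio of 0.21 (ENSRNOT00000003170.3, 14:38643384-39112600). Gabrb2 was at 6.81 and 7.43 FPKM, a log2 ratio of 0.13 (ENSRNOT00000004970.5, 10:27973680-28187565). Among transcripts at 5 FPKM or more, 10.7% had a ratio at least as high as that of Gabrb1 and 23.5% one as high as that of Gabrb2, so neither stood apart from the general run of transcripts.

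Set against each other, the synaptic alpha genes summed to 62.8 FPKM under vehicle and 71.5 FPKM under CORT, and the extrasynaptic genes to 137 and 139 FPKM. The level of Gabra4, Gabra5 and Gabrd over Gabra2 and Gabra3 was therefore 2.17 with vehicle and 1.95 with CORT, a change of -10.4%. Other subunit genes do not enter these sums. The values therefore describe the named genes and not all extrasynaptic over all synaptic subunit mRNA. When only the highest row of each gene was counted, so that the lower rows of Gabra2 and Gabra5 did not enter, these values were 2.67 and 2.59, a change of -3.23%. Without Gabra5, part of which is found at synapses, they were 0.85 and 0.74. The ratio was lower with CORT in each of these 3 forms, which share most of their values and are not independent.

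Of the other genes of the family, 3 are given here. The gamma subunit gene Gabrg1 was at 26.2 FPKM under vehicle and 25.6 FPKM under CORT. Gabrg3 was 1.46-fold higher with CORT, but at only 0.70 and 1.02 FPKM, and the rho subunit gene Gabrr2 was at 1.98 and 2.10 FPKM. Gabra6, Gabre, Gabrp, Gabrq, Gabrr1 and Gabrr3 were not analysed here because no row carries their symbols.

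The 7 genes summed to 212 FPKM under vehicle and 225 FPKM under CORT, a 1.06-fold difference. The extrasynaptic genes made up 64.3% of that sum with vehicle and 61.8% with CORT, the synaptic alpha genes 29.6% and 31.8%, and the beta genes 6.05% and 6.40%.

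**Figure D3:**
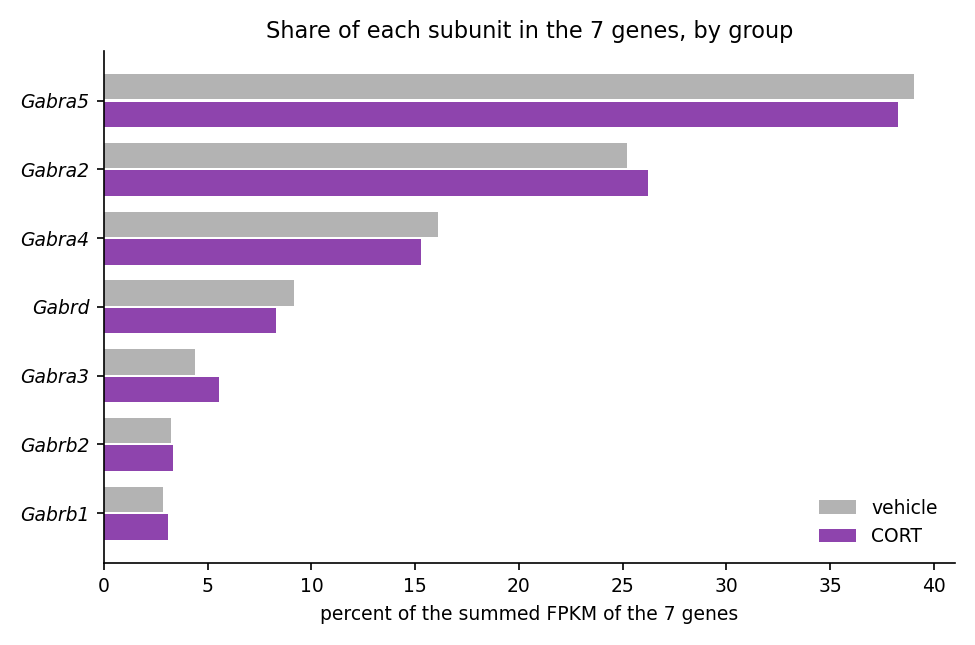
Share of each member gene in the summed FPKM of the 7 genes (bars from 0, percent) in the vehicle group (grey) and the CORT group (purple). Gabra5 holds the largest share in both groups, 39.1% and 38.3%, and the order of the genes is the same in both.

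Part of the family lies in a cluster. On chromosome 14, Gabrb1, Gabra4, Gabra2 and Gabrg1 follow each other within 1.41 Mb, and their log2 ratios with rows summed were 0.21, 0.01, 0.14 and -0.03.

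The promoters of the members fall into unlike kinds, and those of Gabra3 and Gabrd are shown because these genes had the highest and the lowest of the 7 ratios when rows were summed. Each covers 250 bases before to 50 bases after the start of transcription, 5′ to 3′ on the strand of the gene, from RefSeq on the GRCr8 build, which is not the build of the FPKM table. CG dinucleotides, the sites of DNA methylation in mammals, are in capitals. The sequences lie on the minus strand at chrX:155543821-155544120 for Gabra3 and at chr5:171252660-171252959 for Gabrd.
Gabra3: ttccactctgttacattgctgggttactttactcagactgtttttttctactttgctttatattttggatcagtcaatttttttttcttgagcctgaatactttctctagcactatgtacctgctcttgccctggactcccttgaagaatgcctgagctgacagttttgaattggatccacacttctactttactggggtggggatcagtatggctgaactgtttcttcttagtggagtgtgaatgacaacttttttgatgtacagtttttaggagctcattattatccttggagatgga
Gabrd: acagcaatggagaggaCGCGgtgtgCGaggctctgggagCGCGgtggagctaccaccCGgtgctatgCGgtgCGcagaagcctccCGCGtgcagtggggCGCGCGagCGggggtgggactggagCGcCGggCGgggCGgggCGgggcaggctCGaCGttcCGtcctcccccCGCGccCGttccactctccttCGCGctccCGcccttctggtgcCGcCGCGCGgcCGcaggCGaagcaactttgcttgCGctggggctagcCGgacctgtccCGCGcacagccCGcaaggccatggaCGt
Gabra3 has 0 CG dinucleotides and a GC content of 39.3%, whereas Gabrd has 40 and 73.7%. Entries matched 6 of the 7 members, all but Gabra2. The other extrasynaptic genes resembled Gabrd, with 35 and 70.7% for Gabra4 and 42 and 76.3% for Gabra5, and the beta genes lay below them, with 11 and 49.3% for Gabrb1 and 9 and 44.0% for Gabrb2. The median over the 33469 promoters in the table was 7 CG dinucleotides and 51.7% GC. The hexamer TGTTCT, one arm of the glucocorticoid response element, searched on both strands, was in 0 of the 6 member promoters and in 20.7% of all promoters in the table. No match says only that these letters are not in this window.

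Other genes of GABA signalling were described by lists, with 1 row per gene. For comparison, 5.88% of all symbols were higher past the mark under CORT and 9.52% lower, and the median log2 ratio over all symbols was 0.02. Of 19 genes of the inhibitory postsynapse and receptor trafficking, 1 was higher past the mark, 0 were lower and the median was 0.08. The gene was Lhfpl4, which links GABA-A receptors to neuroligin 2, at 13.7 FPKM under vehicle and 17.7 FPKM under CORT. Gphn, the scaffold gephyrin, was at 27.3 and 26.5 FPKM. Both measured GABA-B receptor genes, Gabbr1 and Gabbr2, were within the marks, with log2 ratios of 0.04 and 0.08. Of 5 genes of chloride transport, 0 were past the mark; Slc12a5, the chloride exporter KCC2 that makes GABA inhibitory in mature neurons, had the highest log2 ratio, 0.27, at 66.5 FPKM under vehicle and 80.3 FPKM under CORT, and Wnk1, a kinase that regulates these transporters, the lowest, -0.08.

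Of 10 genes of GABA synthesis, release and uptake, 1 was higher and 1 lower, with a median of 0.13. The higher one was Slc32a1, the vesicular GABA transporter, at 25.4 and 32.0 FPKM. The synthesizing enzymes Gad1 and Gad2 had log2 ratios of 0.26 and 0.24, under the mark. The lower one was Slc6a13, a GABA transporter of meninges and vessels, at 7.21 FPKM under vehicle and 3.03 FPKM under CORT. Of 12 choroid plexus and meningeal markers, 5 were also lower past the mark and 0 higher, against 9.52% and 5.88% of all symbols. Their median log2 ratio was -0.10. The list pools both tissues. The 5 were Col3a1, Slc22a6, Col1a1, Lum and Igf2, whereas Ttr, Folr1, Clic6, Kcnj13, Kl, Prlr and Dcn were within the marks. The part of choroid plexus or meningeal cells in the value of Slc6a13 was not tested.

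Some markers of other cells also differed between the groups, and marker levels stand beside the subunit values for that reason. For comparison, 5.88% of all symbols were higher past the mark under CORT and 9.52% lower. Of 13 interneuron markers, 6 were higher past the mark under CORT and 0 lower, with a median log2 ratio of 0.27 and a summed level of 576 FPKM under vehicle and 695 FPKM under CORT. Sst, the marker of somatostatin interneurons, was at 151 and 195 FPKM. Pvalb, the marker of parvalbumin interneurons, had a log2 ratio of 0.26, under the mark. Of the 6 higher markers, Lhx6 was at only 1.05 and 1.84 FPKM and Erbb4 at 1.39 and 1.87 FPKM. Lamp5 went the other way, at 34.1 and 29.1 FPKM, as did Calb2, given below. Ratios above 0 were found for 11 of the 13. Pyramidal cell markers had 0 of 8 past the mark and a median of 0.10. Among 5 granule cell markers, 1 was lower and the median was -0.23; Prox1, the defining transcription factor, was at 10.9 and 8.96 FPKM. Non-neuronal lists had medians below 0: -0.09 over 10 astrocyte markers (4 lower), -0.21 over 12 oligodendrocyte lineage markers (2 lower), -0.27 over 10 microglia markers (3 lower, 1 higher) and -0.48 over 8 endothelial and pericyte markers (5 lower). The oligodendrocyte lineage markers summed to 5589 FPKM under vehicle and 4652 FPKM under CORT, and no marker with a row was at 0. The 4 lower astrocyte markers were Gfap, at 970 FPKM under vehicle and 517 FPKM under CORT, Aqp4, Sox9 and Aldh1l1, with log2 ratios of -0.91, -0.51, -0.89 and -0.67. The other 6 astrocyte markers were within the marks, and 4 of the 10 had ratios above 0. For the most abundant marker of each of these 4 lists the log2 ratio was 0.04 for S100b, -0.33 for the myelin gene Mbp, -0.09 for the complement gene C1qa and -0.16 for the tight junction gene Cldn5. Ttr, the most abundant choroid plexus marker, was at 6605 and 6598 FPKM, C1ql2 of granule cells at 80.6 and 72.0 FPKM, and Calb2, which marks thalamic and habenular cells as well as interneurons, at 19.1 and 16.7 FPKM. The part of these differences in the values of the subunits was not tested.

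**Figure D4:**
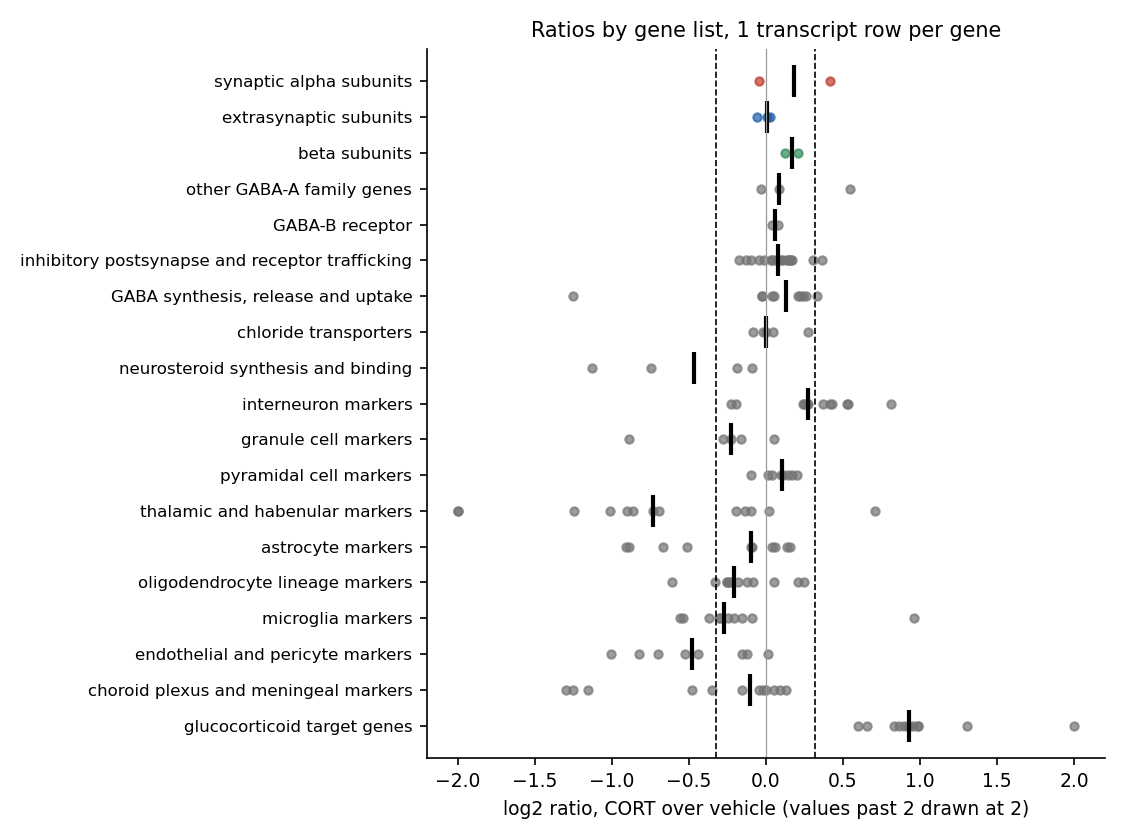
Log2 ratio of CORT over vehicle for each gene (points, 1 transcript row per gene) and the median (black bar) of each list; dashed lines are drawn at 25% higher and 20% lower. The extrasynaptic subunits cluster at 0 (median 0.01), the glucocorticoid targets lie wholly above the upper line (median 0.93), and the thalamic and habenular markers have a median of -0.73.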

How the data were processed

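RNA of whole hippocampi from 8 adrenalectomized rats, 4 per group by the treatment label, was sequenced from TruSeq stranded libraries. Per the labels, the submitters used CASAVA 1.8.2, TopHat2 2.0.10 and Cuffdiff 2.2.0 with rn6. The deposited values are FPKM per Ensembl transcript, 1 per group, scaled geometrically between libraries by the authors, who also set a minimum alignment count of 10 and corrected for multiple mapping, sequence bias and effective length. Dividing reads between transcripts of a gene is an estimate. A further 4 numeric columns hold the authors' fold changes, test statistics, p-values and q-values and were not used. No row was at 0 FPKM.

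Log2 ratios of the group values, CORT over vehicle, had no pseudocount, and a level 25% higher or 20% lower was the mark of size. For lists, a symbol was represented by its row with the highest mean FPKM. Every member was named, and so was each other GABA-A gene with a row, except that some genes are not reported here. Also named was, in the other GABA lists, each gene past the mark with at least 1 FPKM. Lists with no such gene are given by their highest and lowest ratio, and marker lists by their most abundant markers. The pyramidal list is an exception: Slc17a7 and Camk2a are given, although Nrgn was more abundant, at 1137 FPKM with vehicle. Gphn, Gad1, Gad2, Pvalb, Lamp5, Lhx6, Erbb4, Prox1, Rora and the 4 lower astrocyte markers were named after their values were seen. The same holds for Zic1, Slc17a6, Chrna3, Gpr151 and the choroid plexus and meningeal markers other than Ttr. The members and lists were chosen with earlier results of these data known. The depth per library is unknown here, which leaves single values without a precision. Loci are printed as the deposited table gives them. Alternatives were pseudocounts of 1 and 0.1 FPKM, centring, other marks of size, a filter of 1 FPKM, and other ways to combine rows. The level of 5 FPKM was chosen after the data were seen. The ratio code was tested on simulated data. Python 3.11.15, numpy 2.4.6, pandas 2.3.3 and matplotlib 3.10.9 were used.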

Additional observations from a re-analysis of the deposited data

How the results depend on the processing

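Summing rows could change only the genes with 2 rows: the log2 ratio of Gabra2 went from -0.04 in its highest row to 0.14, and that of Gabra5 from 0.03 to 0.06. Centring on the median of all transcripts lowers every ratio by the same 0.02, which put Gabra4, at 0.01, at -0.02. A pseudocount of 1 FPKM moved Gabra3 from 0.41 to 0.38. The number of member transcripts higher past the mark under CORT was 3. It was 0 with marks of 1.5-fold and of 2-fold, and 1 with 1 row per gene or with rows summed, both chosen after the data were seen. It was 4 with a mark of 1.1-fold, 2 with a pseudocount of 1 FPKM, and 3 with a pseudocount of 0.1 FPKM or when centred. The number of member transcripts lower past the mark was 0 in each of these settings. For comparison, of the 10371 transcripts at 5 FPKM or more in both groups, 2157 were higher and 1405 lower past 1.1-fold. Past 1.5-fold, 130 of them were higher and 109 lower. With 1 row per gene, 5.88% of all symbols were higher past the mark. The median log2 ratio of 0.13 was 0.026 with 1 row per gene, since the lower rows of Gabra2 and Gabra5 are then left out, and between 0.10 and 0.13 in the other settings run. The extrasynaptic over synaptic alpha level with CORT was 0.90 times that with vehicle, and between 0.87 and 0.97 times in the alternatives.

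No paired analysis was possible because the table has 1 value per group. For the same reason leaving out each rat was not run, and no limit of detection can be given.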

Other observations

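Delta-containing GABA-A receptors are sensitive to neurosteroids, and 4 of 7 listed genes of neurosteroid synthesis and binding had a row. Of these, 0 were at least 25% higher under CORT, against 5.88% of all symbols, and 2 were at least 20% lower, against 9.52%. The median log2 ratio of these 4 genes was -0.47. Tspo, a mitochondrial membrane protein that is also abundant in microglia and endothelial cells, was at 13.0 FPKM under vehicle and 7.76 FPKM under CORT. Akr1c14, which makes allopregnanolone, was at only 1.68 and 0.77 FPKM, below the level of 5 FPKM used above. Srd5a1, the preceding enzyme, had a log2 ratio of -0.19, and Dbi, a binding protein of the benzodiazepine site, one of -0.09. Beside these values, 3 of 10 microglia markers were lower past the same mark and 1 higher, 5 of 8 endothelial and pericyte markers were lower and 0 higher, and their part in the values of Tspo and Akr1c14 was not tested.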
